A study of Yarrowia lipolytica with 3 samples.

Results

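Storage fat lipolysis and glycerol metabolism was followed through 5 genes of the oil-accumulating, dimorphic yeast Yarrowia lipolytica, out of 6448 genes listed. They were chosen by identifier: YALI0D17534g (TGL3) and YALI0F10010g (TGL4) for triacylglycerol lipolysis, YALI0F00484g (GUT1) and YALI0B13970g (GUT2) for glycerol use, and YALI0B02948g (GPD1) for glycerol 3-phosphate formation. All 5 were found in every library and all 5 passed the filter of 1 RPKM (reads scaled for gene length and library size), as did 6035 genes in all. RNA-seq libraries came from 3 strains of the PO1a background, 1 library each: the mhy1Δ mutant, which lacks MHY1, the MHY1-overexpressing mutant, and the wild-type strain. MHY1 codes for a zinc-finger transcription factor of the C2H2 type that hyphal growth of this yeast requires. Every culture was grown in 50 ml of YNDC7 medium with uracil at 30 °C to an OD600 of 0.8. How the deletion and the overexpression were built, and whether more than 1 clone was grown, is not stated in these sources.

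Storage fat in this yeast is triacylglycerol, held in lipid droplets, and lipolysis splits it into fatty acids, which go to peroxisomal β-oxidation, and glycerol. Glycerol is phosphorylated by glycerol kinase (GUT1), and the glycerol 3-phosphate is oxidised to dihydroxyacetone phosphate by a mitochondrial, flavin-linked dehydrogenase (GUT2). A cytosolic, NAD-dependent dehydrogenase (GPD1) runs the other way and makes glycerol 3-phosphate, the backbone of new triacylglycerol, from dihydroxyacetone phosphate. In Y. lipolytica TGL4 is known as the active intracellular lipase and TGL3 as a protein that lipolysis needs beside it, and loss of GUT2 is known to raise fat storage.

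The values implied totals of 59527000 reads for the mhy1Δ library, 75306802 for the overexpression library and 47622181 for the wild-type library, and the 5 genes were covered by 2177 reads or more in each. MHY1 (YALI0B21582g) went with the labels: it was listed at 0 in mhy1Δ, was at 1159 RPKM in the overexpression strain and at 467 RPKM in wild type. With 1 library per strain there was no replicate check and no test, so differences are given by size, and the 95% intervals beside them cover counting error only. RNA came from whole cultures, so a change in the mix of cell forms and a change within each cell cannot be told apart. The files carry identifiers without gene names, and no sequence of these genes was used here.

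In all 3 libraries GUT1 was highest per length, followed by GUT2, GPD1 and then the lipolysis pair, whose levels in mhy1Δ did not differ beyond counting error. GUT1 was at 2351 RPKM in mhy1Δ, 3862 RPKM with MHY1 overexpressed and 2855 RPKM in wild type, which placed it at rank 108, 22 and 80 of the genes in those libraries. GUT2 followed at 1881, 1186 and 1492 RPKM in mhy1Δ, overexpression and wild type, and GPD1 at 345, 393 and 261 RPKM. Both lipolysis genes were far lower, near the middle of all genes in wild type: TGL3 was above 48.5% of the listed genes there and TGL4 above 47.0%. Of all reads in the overexpression library, 0.584% fell on GUT1 and 0.0213% on TGL3.

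**Figure D1:**
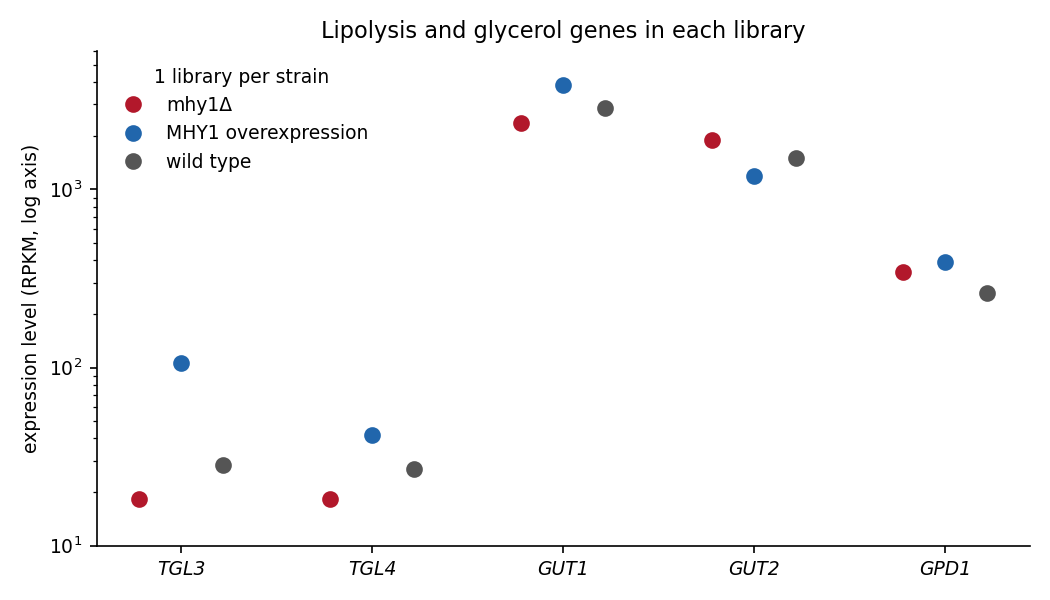
Expression level in RPKM (log axis) of the 5 genes, 1 point per library: mhy1Δ, MHY1 overexpression and wild type. TGL3, TGL4 and GUT1 are lowest in mhy1Δ and highest in the overexpression library, GUT2 runs the other way, and GPD1 is lowest in wild type at 261 RPKM.

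The lipolysis genes were both lower without MHY1 and both higher with extra MHY1, by unequal amounts. TGL3 was at 18.3 RPKM in mhy1Δ, 106 RPKM in the overexpression strain and 28.4 RPKM in wild type. It was therefore 1.55-fold lower in mhy1Δ than in wild type, with a log2 ratio of −0.61, where ratios were taken as log2((x + 1)/(y + 1)) on RPKM. With MHY1 overexpressed, TGL3 exceeded its wild-type level 3.75-fold (95% interval 3.60 to 3.91) and its mhy1Δ level 5.81-fold (5.56 to 6.08). TGL4 was at 18.2 RPKM in mhy1Δ, 42.0 RPKM in the overexpression strain and 26.8 RPKM in wild type. That made it 1.47-fold lower in mhy1Δ than in wild type, and 1.57-fold higher with MHY1 overexpressed than in wild type (1.51 to 1.64). Between overexpression and mhy1Δ the TGL4 difference was 2.31-fold (2.21 to 2.42).

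Because the lipolysis pair differed by unequal amounts, its balance was distinct in the overexpression library. TGL3 over TGL4 was 1.01 in mhy1Δ (0.949 to 1.06), 2.53 in the overexpression strain (2.46 to 2.60) and 1.06 in wild type (1.00 to 1.12). In mhy1Δ their levels did not differ beyond counting error, and in wild type TGL3 was above TGL4 by little more than that. The overexpression ratio was 2.39 times that of wild type (2.25 to 2.53), whereas the mhy1Δ ratio was 0.949 times it (0.879 to 1.02), an interval that spans 1. Such ratios within 1 library do not depend on how libraries are scaled to each other. Summed, the pair stood at 36.5 RPKM in mhy1Δ, 148 RPKM in overexpression and 55.1 RPKM in wild type, and TGL3 made up 50.1%, 71.7% and 51.4% of these sums.

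The genes of glycerol use, GUT1 and GUT2, went in opposite directions in both engineered strains. GUT1 was 1.21-fold lower in mhy1Δ than in wild type, 1.35-fold higher with MHY1 overexpressed than in wild type (1.35 to 1.36) and 1.64-fold higher in overexpression than in mhy1Δ (1.63 to 1.65). GUT2 was 1.26-fold higher in mhy1Δ than in wild type (1.25 to 1.27) and 1.26-fold lower in overexpression than in wild type. Between overexpression and mhy1Δ, GUT2 was 1.59-fold lower. All of these are within 2-fold, and the narrow intervals reflect the depth of 130687 reads or more per library, not agreement between cultures.

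Glycerol kinase therefore stood further above the mitochondrial dehydrogenase the more MHY1 was measured. GUT1 over GUT2 was 1.25 in mhy1Δ (1.24 to 1.26), 3.26 in the overexpression strain (3.24 to 3.28) and 1.91 in wild type (1.90 to 1.93). The ratio in mhy1Δ was 0.653 times that of wild type (0.647 to 0.659), and the ratio in overexpression was 1.70 times it (1.69 to 1.72).

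GPD1 was the member that was higher in both engineered strains than in wild type. It was 1.32-fold higher in mhy1Δ (1.29 to 1.35) and had a log2 ratio of 0.59 in overexpression, a fold of 1.47 to 1.53 by its interval. Between overexpression and mhy1Δ the GPD1 log2 ratio was 0.19 as deposited, and it was −0.03 under median of ratios scaling and −0.02 after centring on all genes, so no order of these libraries is given for it. GUT2 over GPD1, the glycerol 3-phosphate dehydrogenases that run toward and away from dihydroxyacetone phosphate, was 5.46 in mhy1Δ (5.39 to 5.53), 3.02 in overexpression (2.99 to 3.06) and 5.71 in wild type (5.62 to 5.81). GUT1 over GPD1, a pair added after the values were seen, was 6.82, 9.84 and 10.9 in mhy1Δ, overexpression and wild type. The overexpression library thus stood apart in the GUT2 to GPD1 ratio, and mhy1Δ in the GUT1 to GPD1 ratio.

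**Figure D2:**
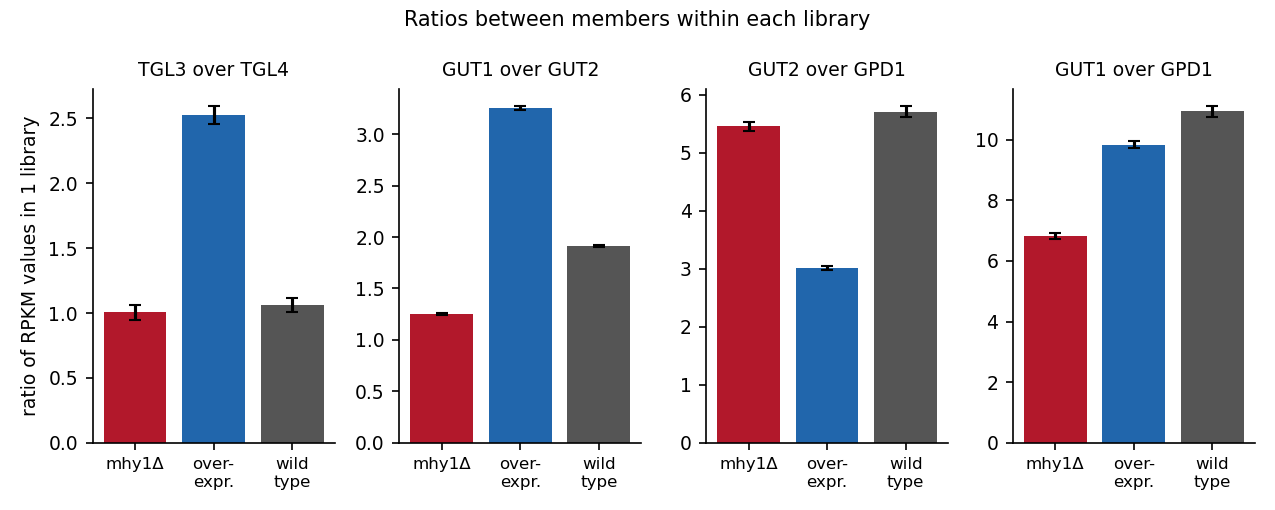
Ratios of RPKM values between genes within 1 library (vertical axes from 0), with 1 bar per strain in the order mhy1Δ, MHY1 overexpression, wild type; error bars are 95% intervals of counting error. TGL3 over TGL4 is near 1 in mhy1Δ and wild type and 2.53 in overexpression, and GUT1 over GUT2 is 1.25, 3.26 and 1.91.

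The comparison of mhy1Δ with wild type sets the library without MHY1 beside the wild-type library, and none of the 5 genes was 2-fold different in it. Across the 6035 genes, 1.66% passed the 2-fold line upward and 5.83% downward. TGL3, TGL4 and GUT1 had log2 ratios below 0, GUT2 and GPD1 above 0, and the median of the 5 was −0.28 beside −0.03 for all genes. The TGL3 ratio was above that of 12.4% of all genes, the TGL4 ratio above 14.7% and the GUT1 ratio above 26.5%, while GPD1 was above 91.0% and GUT2 above 88.0%. At 1.5-fold TGL3 alone was different as deposited, among the 13.0% of genes at least 1.5-fold lower, and it fell short of 1.5-fold under both other scalings and after centring, at −0.55 to −0.58.

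The comparison of overexpression with wild type sets the library with extra MHY1 beside the wild-type library. TGL3 was the 1 member at least 2-fold different in it, where 5.98% of all genes passed that line upward and 2.47% downward. Its log2 ratio of 1.87 was above that of 98.9% of all genes. Among the 603 genes of its own decile of mean level it was above 99.2%. TGL4, GPD1 and GUT1 followed with log2 ratios of 0.63, 0.59 and 0.44, and GUT2 was at −0.33, above 10.8% of all genes and 19.0% of its decile. The median of the 5 was 0.59, beside 0.16 for all genes, of which 66.7% were above 0. The GUT1 ratio was above that of 74.4% of all genes, and above 90.7% of the genes in its own decile of mean level, the highest, whose median was −0.09. As deposited, TGL3, TGL4 and GPD1 were at least 1.5-fold higher, where 16.8% of all genes were. TGL4 (0.47 to 0.52) and GPD1 (0.43 to 0.47) fell short of 1.5-fold under both other scalings and after centring.

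Between the overexpression and the mhy1Δ library, TGL3 and TGL4 were at least 2-fold higher, with log2 ratios of 2.48 and 1.17, where 15.0% of all genes passed that line upward and 4.74% downward. GUT1 was at 0.72 and GUT2 at −0.67, past 1.5-fold upward with 27.7% of all genes and downward with 8.80%. GUT1 fell short of 1.5-fold under both other scalings and after centring, at 0.50 to 0.54. The median of all genes was 0.20 as deposited and 0.04 under upper-quartile scaling, and relative to that shift TGL4 lay under the 2-fold line: its log2 ratio was 0.96 under median of ratios scaling, 1.00 and just short of it under upper-quartile scaling, and 0.96 after centring. Of the genes called in either direction 76.0% were higher as deposited and 64.4% under median of ratios scaling. Against wild type the overexpression library had 70.8% and 58.8%. These 3 comparisons share libraries in pairs, so each is given by its own values.

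**Figure D3:**
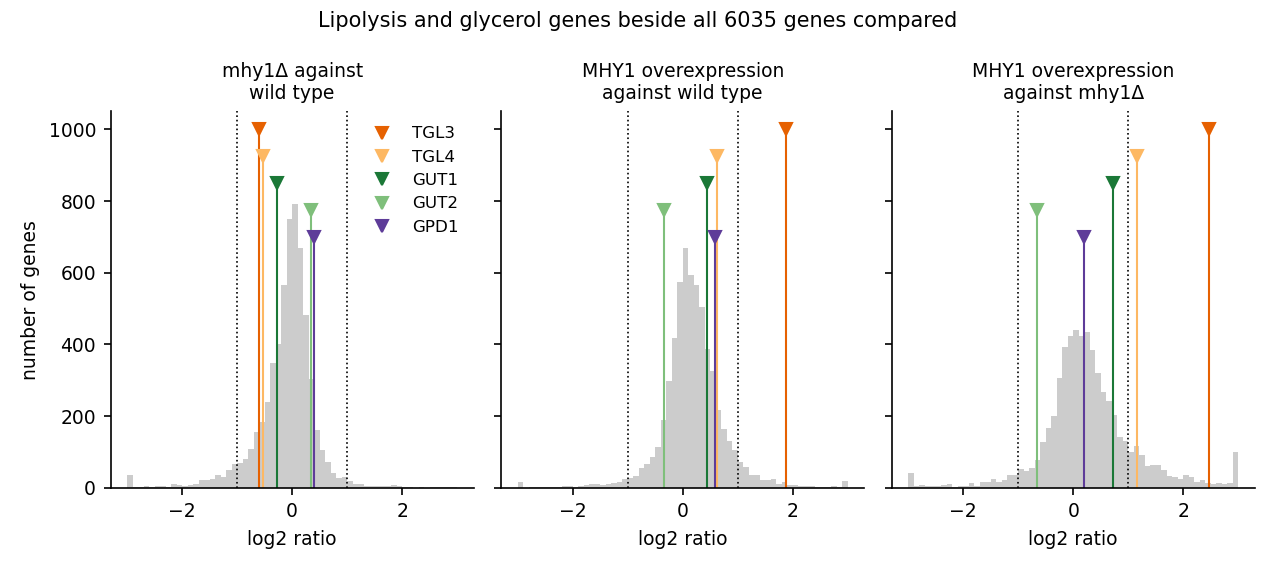
Number of genes by log2 ratio (grey, 6035 genes, bins of 0.1, values beyond 3 in the end bars) in each comparison, with the 5 genes marked by coloured lines whose heights carry no value; dotted lines mark 2-fold. TGL3 lies beyond the upper line in both comparisons that hold the overexpression library, at 1.87 and 2.48, and no member lies beyond a line between mhy1Δ and wild type.

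Read across all libraries, TGL3, TGL4 and GUT1 had the order of MHY1 itself, lowest in mhy1Δ and highest in overexpression. This order was common, held by 39.2% of all genes compared. GUT2 had the opposite order, held by 18.7%. These orders stayed under median of ratios and upper-quartile scaling. The members were not close to each other in pattern. Measured as the distance between their pairs of log2 ratios to wild type, over 3 libraries, TGL4 and GUT1 were nearest at 0.32, while TGL3 and TGL4 were 1.24 apart and TGL3 and GUT2 2.39 apart.

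Among 5142 genes at 10 RPKM or more in a library, fewer had log2 ratios close to those of TGL3 than to those of the others. Within a distance of 0.25 on that measure lay 6 genes for TGL3, 170 for TGL4, 460 for GUT1, 290 for GUT2 and 186 for GPD1. Such counts follow from how many genes have ratios of that size. The TGL3 ratio in overexpression against wild type was above that of 98.9% of all genes. The gene most like TGL3 was YALI0C00847g, at 11.9 RPKM in mhy1Δ, 72.6 RPKM in overexpression and 18.4 RPKM in wild type, at a distance of 0.060. The gene most like GUT2 was YALI0E22242g, at a distance of 0.0064 but a far lower level, at 15.1, 9.18 and 11.9 RPKM in the same libraries. No likeness in function or control follows from these distances.

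Identifiers of this yeast carry the chromosome letter and run along the chromosome, and some neighbours of the members differed more than the members did. GUT1, identifier 18 of 1317 with the letter F, had YALI0F00462g before it, at 442 RPKM in mhy1Δ, 1673 RPKM in overexpression and 809 RPKM in wild type. That neighbour had the order of GUT1 with larger steps, 1.83-fold lower than wild type in mhy1Δ and 2.07-fold higher than wild type in overexpression. Of all genes compared, 39.2% had that order, and 5.98% were at least 2-fold higher in overexpression against wild type. The gene on the other side of GUT1 ran against it, at 1982, 1403 and 1604 RPKM. Before GUT2 stood YALI0B13948g, at 145 RPKM in mhy1Δ, 23.2 RPKM in overexpression and 63.3 RPKM in wild type. It had the order of GUT2 with larger steps, 2.28-fold higher in mhy1Δ and 2.73-fold lower in overexpression than in wild type. That order was held by 18.7% of all genes compared. Against wild type, 1.66% were at least 2-fold higher in mhy1Δ and 2.47% at least 2-fold lower in overexpression. The gene after GUT2 was at 31.3, 30.6 and 27.8 RPKM in the same libraries. Its log2 ratios to wild type were small, 0.17 in mhy1Δ and 0.13 in overexpression. The medians of all genes were −0.03 and 0.16. The gene before TGL3 was at 3.68, 19.1 and 13.8 RPKM, the order of TGL3, held by 39.2% of all genes compared. It was 3.73-fold lower in mhy1Δ than in wild type, where 5.83% of all genes were at least 2-fold lower. The gene after TGL3 was barely expressed, at 0.464, 1.10 and 1.01 RPKM. The genes beside TGL4 and GPD1 were within 1.5-fold of wild type in either strain, apart from the gene after GPD1, which was 1.59-fold higher in overexpression. The sources used here do not say whether the libraries keep strand, so reads of overlapping neighbours could not be separated, and overlap was not tested.

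Other genes of the pathway were counted by list, with identifiers from general knowledge of Yarrowia nomenclature. Downstream of the fatty acids, the 8 genes of peroxisomal β-oxidation had a median log2 ratio of 0.73 in overexpression against wild type. The median of all genes was 0.16. Of the 8, 3 were at least 2-fold higher and 1 lower, POX5 at −1.54, where 5.98% and 2.47% of all genes were. The acyl-CoA oxidase gene POX2 and the thiolase gene POT1 were nearest to TGL3 in size there, at log2 ratios of 1.54 and 1.56. In mhy1Δ against wild type, where TGL3 and TGL4 were both below 0, the list had 4 genes on either side of 0. POX2 and POT1 were above 0, at 0.17 and 0.58, unlike TGL3 at −0.61. POX1, POX4 and POX6 were below 0 as TGL3 was, at −0.63, −0.94 and −1.24. POX5 was at least 2-fold higher there and POX6 at least 2-fold lower, where 1.66% and 5.83% of all genes were. POX3, at −0.02, turned sign under both other scalings. In overexpression against wild type MFE1, at 0.06, did too, and the list median was 0.57 under median of ratios scaling.

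Downstream of glycerol, the 5 genes of triose phosphate and gluconeogenesis had the signs of GUT2. All 5 had log2 ratios above 0 in mhy1Δ against wild type, where 46.2% of all genes did, and below 0 in overexpression against wild type, where 33.3% did, also under both other scalings and after centring. All 5 lie in the highest decile of mean level, as GUT2 does, and the decile medians had the same signs, 0.07 and −0.09. TDH1 and TPI1 in mhy1Δ, at 0.02 and 0.07, and FBP1 in overexpression, at −0.12, were close to those medians. Triose phosphate isomerase, TPI1, which shares dihydroxyacetone phosphate with GUT2, was at 2054 RPKM in mhy1Δ, 1511 RPKM in overexpression and 1956 RPKM in wild type. Phosphoenolpyruvate carboxykinase, PCK1, was the 1 gene of the list at least 2-fold different in mhy1Δ against wild type, where 7.49% of all genes were. PCK1 was 2.32-fold higher, where 1.66% of all genes were at least 2-fold higher. No gene of the list was at least 2-fold different in overexpression against wild type, where 8.45% of all genes were. The 3 glyoxylate shunt genes ICL1, MLS1 and MLS2 were above 0 in mhy1Δ against wild type, with a median of 1.00 beside −0.03 for all genes. MLS1 was at least 2-fold higher at 1.57, where 1.66% of all genes were. ICL1, a little short of 2-fold as deposited, reached it with either other scaling and after centring. In overexpression against wild type MLS1 was at least 2-fold lower at −1.16, the side of GUT2, where 2.47% of all genes were. ICL1 and MLS2 were above 0 there, at 0.17 and 0.33, beside a median of 0.16 for all genes. The median of the 3, 0.17 as deposited, was 0.007 under median of ratios scaling and 0.009 after centring.

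Toward new fat, the 7 genes listed for triacylglycerol assembly, which include the sterol ester gene ARE1, were all within 2-fold of wild type in both engineered strains. So were 5583 of the 6035 genes compared in mhy1Δ and 5525 in overexpression. The median log2 ratio of the 7 was 0.08 in mhy1Δ and 0.11 in overexpression, beside −0.03 and 0.16 for all genes. The overexpression median of the 7 turned below 0 under both other scalings, to −0.05 with median of ratios. The first acyltransferase on glycerol 3-phosphate, SCT1, was at 195 RPKM in mhy1Δ, 106 RPKM in overexpression and 109 RPKM in wild type, 1.80-fold higher in mhy1Δ than in wild type, as GPD1 was, but 0.979 times wild type in overexpression (0.946 to 1.01), where GPD1 was higher. The diacylglycerol acyltransferase gene DGA1 had the order of the lipolysis genes, at 45.6 RPKM in mhy1Δ, 105 RPKM in overexpression and 75.8 RPKM in wild type. The other diacylglycerol acyltransferase gene, DGA2, was at −0.02 in mhy1Δ against wild type, a sign that turned under other scalings, and at 0.93 in overexpression against wild type, the largest of the list there. The phospholipid:diacylglycerol acyltransferase gene LRO1 ran the other way, at 0.19 and −0.20.

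**Figure D4:**
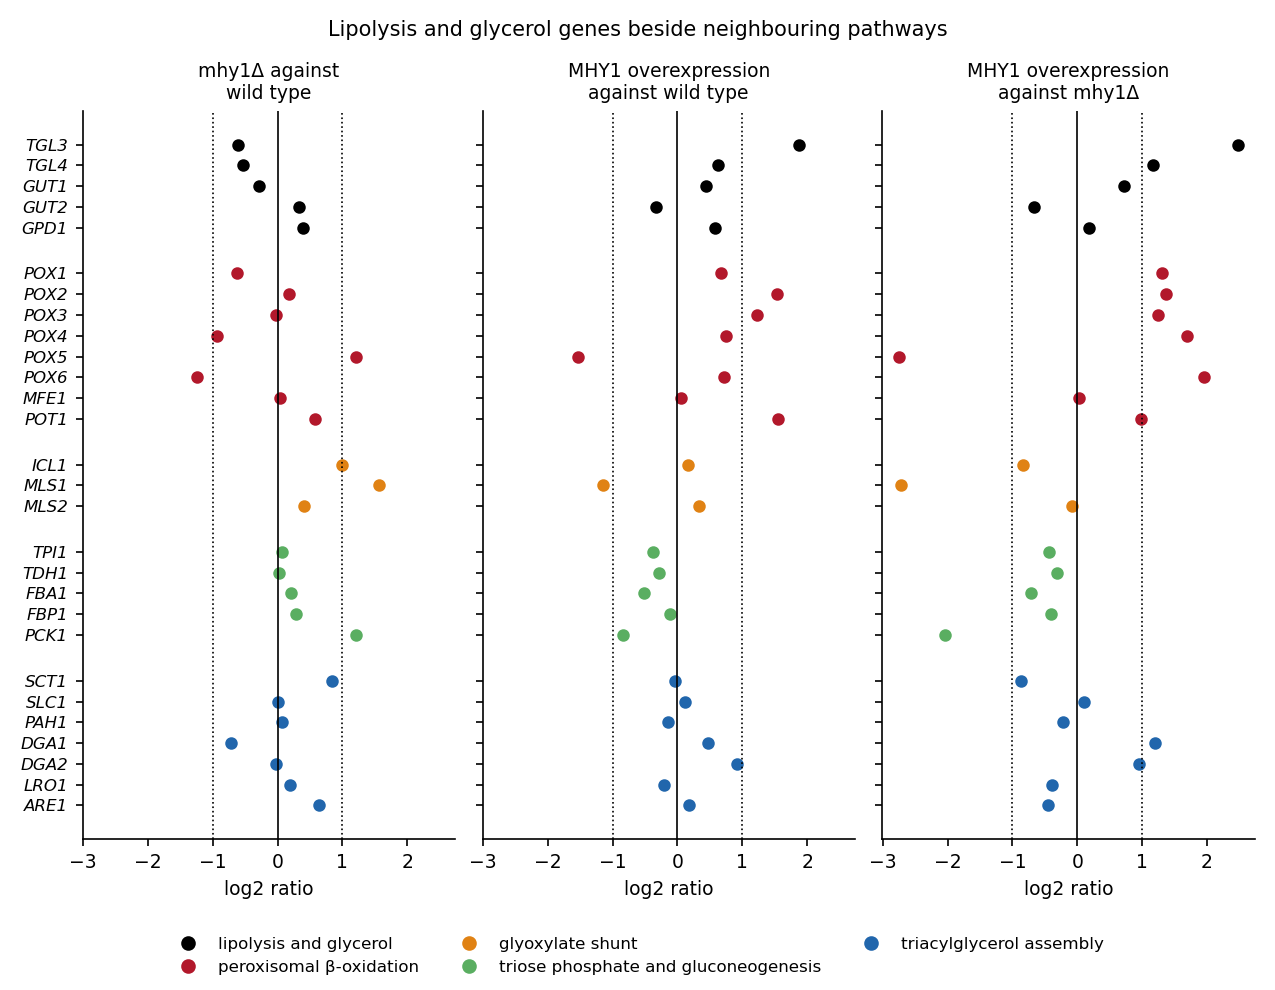
Log2 ratio (horizontal axis, solid line at 0, dotted lines at 2-fold) of the 5 lipolysis and glycerol genes and of 23 genes of neighbouring pathways, 1 point per gene, in each comparison. TGL3 lies at the upper end with POX2 and POT1 in overexpression against wild type. In mhy1Δ against wild type TGL3 lies below 0, and POX2 and POT1 lie above 0. GUT2 has the sign of the 5 triose phosphate and gluconeogenesis genes in each comparison.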

How the data were processed

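Total RNA of 3 cultures, 1 per strain, was sequenced from TruSeq libraries made from 1 µg of RNA, per the labels' protocols. The deposited unit is RPKM, per the file headers, given for 6448 identifiers. The submitters' processing notes name TopHat2 2.1.1 and Cufflinks 2.2.1 without a role, and list a mouse build, which does not hold these genes; yeast build, annotation and counting are not stated in these sources. In the reference table of the W29 assembly 0 identifiers matched, so member names follow the choice of genes and other names general knowledge of Yarrowia nomenclature.

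RPKM values fell on whole-read steps, from which library totals, gene lengths (multiples of 3) and reads were recovered; 99.97% of values above 0 came within 0.01 of a whole read. Recovered lengths were 2001 bp for TGL3, 2451 bp for TGL4, 1512 bp for GUT1, 1839 bp for GUT2 and 1197 bp for GPD1. On data simulated from the recovered lengths of 6380 genes, 92.6% of lengths came back equal and 99.5% equalled or divided the simulated one. This check cannot show a length already recovered as a divisor from the deposited values. A length that divides the true one gives too few reads and too wide an interval. Ratios used a pseudocount of 1 on genes reaching 1 RPKM in any library; printed folds are plain RPKM ratios with exact conditional binomial intervals (95%), and changes of within-library ratios have normal intervals on the log scale. A difference was called at 2-fold on the log2 scale. Named were the 5 genes, MHY1, their nearest patterns, identifier neighbours, and list genes past 2-fold or needed for a list's description; at most 2 unannotated identifiers per direction are printed. The members and lists were chosen with earlier results of these data known. Alternatives were other pseudocounts, filters, scalings and thresholds. Work used Python 3.11.15, numpy 2.4.6, pandas 2.3.3, scipy 1.17.1 and matplotlib 3.10.9.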

Additional observations from a re-analysis of the deposited data

How the results depend on the processing

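Of 75 member log2 ratios under other pseudocounts, scalings and centring, 73 kept their sign and 72 their side of 2-fold. The exceptions were GPD1 and TGL4 between overexpression and mhy1Δ, whose values stand with the results; there 1 member in place of 2 stayed at least 2-fold different after median of ratios or upper-quartile scaling and after centring, the last added after the data were seen. At 1.5-fold the members different were 1 in mhy1Δ against wild type (TGL3), 3 in overexpression against wild type (TGL3, TGL4, GPD1) and 4 in overexpression against mhy1Δ (all but GPD1); at 4-fold they were 0, 0 and 1 (TGL3). Of these 1.5-fold differences, those of TGL3 in mhy1Δ, of TGL4 and GPD1 against wild type and of GUT1 against mhy1Δ were lost under both other scalings and after centring, and all but that of GUT1 also with a pseudocount of 5. Over all genes, a pseudocount of 5 gave 211 lower in mhy1Δ against wild type, 188 higher in overexpression against wild type and 591 higher in overexpression against mhy1Δ, and a filter at 10 RPKM gave 238 higher in overexpression against wild type, in place of 352, 361, 906 and 361. At 1.5-fold, 281 and 785 genes were higher and lower in mhy1Δ against wild type, 1013 and 339 in overexpression against wild type, and 1671 and 531 in overexpression against mhy1Δ; at 4-fold these were 17 and 79, 51 and 39, and 269 and 93. Changes of threshold, pseudocount and filter act by construction. No paired analysis was possible because each strain had 1 library, and no library could be left out. Depth limited the lipolysis genes most, at 2177 to 16013 reads.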
